A study of Mus musculus with 31 samples.

Results

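The genes described here encode the core of the miRNA silencing complex, the 4 Argonaute proteins (Ago1, Ago2, Ago3, and Ago4) and the 3 Tnrc6 scaffolds (Tnrc6a, Tnrc6b, and Tnrc6c). They were taken by symbol, and all 7 were among the 15034 genes of the RNA-seq table, which holds only genes with a value above 0 in every library. The 12 RNA-seq libraries were made from mouse embryonic stem cells (mESCs) of the ES-E14TG2a line, all carrying a FLAG tag on both alleles of *Trim71* and grown in 2i and lif. They comprised 2 libraries of WT mESCs (the FLAG-Trim71 line with no further edit), 2 of CLIPΔ mESCs, in which the Trim71-binding region of the *Ago2* 3’UTR was deleted on both alleles, 4 of *Ago2* KO mESCs, and 4 of *Ago2* KO/CLIPΔ mESCs, which carried both changes. The knockouts were made with Cas9 and 2 guides and grown from single sorted cells, and the study used 2 CLIPΔ clones. The sources do not say which clone gave which library, so the p-values measure the spread between these libraries, which the labels call biological replicates. The question put to the data was how the mRNAs of the other members stood when *Ago2* was lost.

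Argonautes bind a miRNA and carry it to partly complementary sites in mRNAs. Tnrc6 proteins (GW182 in flies) bind Argonautes and recruit the deadenylases that shorten the poly(A) tail, after which the mRNA is decapped and degraded. Ago2 is the mammalian Argonaute known for cleaving fully matched targets, and Ago1, Ago3, and Ago4 load overlapping sets of miRNAs. Trim71 is an RNA-binding protein of early embryonic cells and a target of let-7.

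The sequences shown first are those at which *Ago2* was edited or bound, since the groups are defined by them. Positions are on mm10 with the GENCODE vM21 annotation. The knockout guides match introns of *Ago2* on either side of exons 10 and 11, at chr15:73123243-73123262 (minus strand) and chr15:73124083-73124102 (plus strand), with the PAM in capitals. The third sequence is 30 nt of exon 19 in the *Ago2* 3’UTR at chr15:73103527-73103556 (minus strand), where the capitals mark the Trim71 CLIP-seq peak at 73103539 to 73103543.
*Ago2* knockout guide 1: ggggttccaataccagcggtTGG
*Ago2* knockout guide 2: gatccttggttacccgatccTGG
*Ago2* 3’UTR at the Trim71 peak: agtgaggagactgCTAGCtccgtgctgtct
Cuts at both guides would remove 854 bp with 257 coding nt. These make up 1.86% of the 13800-nt longest transcript on which reads were counted, so nearly all of the counted length of *Ago2* lies outside the predicted deletion. Of the 498 Trim71 peaks, 1 lay in a member, which was the Ago2 peak with 2616 reads. It ranked 208 in the list by reads, and no peak lay in *Ago1*, *Ago3*, *Ago4*, or a Tnrc6 gene.

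The members lie at 4 loci. *Ago3* (chr4:126331704-126429556), *Ago1* (chr4:126435012-126468583), and *Ago4* (chr4:126489541-126533472) are neighbours on the minus strand of chromosome 4, with 5455 and 20957 nt between them. *Ago2* (chr15:73095844-73184935) stands alone on the minus strand. *Tnrc6b* (chr15:80711313-80941085), *Tnrc6a* (chr7:123123885-123195296), and *Tnrc6c* (chr11:117654289-117763439) are on plus strands. The Argonaute coding sequences were alike in length, from 2571 nt in *Ago1* to 2583 nt in *Ago4*, and 73.2% to 76.8% identical in pairs. The longest identical run was 170 nt between *Ago1* and *Ago3*, against 53 nt between *Ago1* and *Ago2* and 17 nt between *Ago2* and either *Ago3* or *Ago4*. The Tnrc6 coding sequences, of 5430 to 5700 nt, were 68.3% to 69.6% identical with no shared run above 24 nt. How reads that match more than 1 place were counted is not stated, and the part of shared reads in the low *Ago3* values was not tested.

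*Ago2*, the targeted gene, gave 28.2 and 21.6 TPM (reads per transcript scaled by transcript length and library total) in WT and 27.3 and 20.3 TPM in CLIPΔ mESCs. It gave 1.67, 1.85, 1.97, and 2.29 TPM in *Ago2* KO and 1.51, 1.72, 2.87, and 2.60 TPM in *Ago2* KO/CLIPΔ mESCs (replicates in order). Every knockout library was far below every library with *Ago2*, so the targeted gene went with the labels. The knockout means of 1.95 ± 0.261 TPM (SD, n = 4) and 2.18 ± 0.660 TPM (n = 4) were 7.83% of the WT mean and 9.15% of the CLIPΔ mean, which is 12.8-fold and 10.9-fold lower. The difference of mean log2(TPM + 1), the scale of all log2 differences here, was -3.13 in the WT background (SE 0.19, limma adjusted p = 5.34e-06) and -2.97 in the CLIPΔ background (adjusted p = 4.26e-06). These values understate the change of low genes because of the pseudocount of 1.

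The other 6 members were lower, not higher, where *Ago2* was lost. All 7 members were lower in every *Ago2* KO library than in every WT library, and all 7 were lower in every *Ago2* KO/CLIPΔ library than in every CLIPΔ library. Of all 15034 genes, 49.4% met the first condition, 48.9% met the second, and 38.9% met both. The opposite, every knockout library higher in both backgrounds, held for 0 of 7 members and for 9.72% of all genes. The direction was thus common among all genes in these libraries. Whether fewer transcripts per cell or a different mix of cells gave a lower value cannot be told apart in bulk samples. The median over the table was 7.32 to 8.07 TPM in the libraries with *Ago2* and 4.95 to 5.98 TPM in the knockout libraries. The part of this difference in the members' values was not tested.

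**Figure D1:**
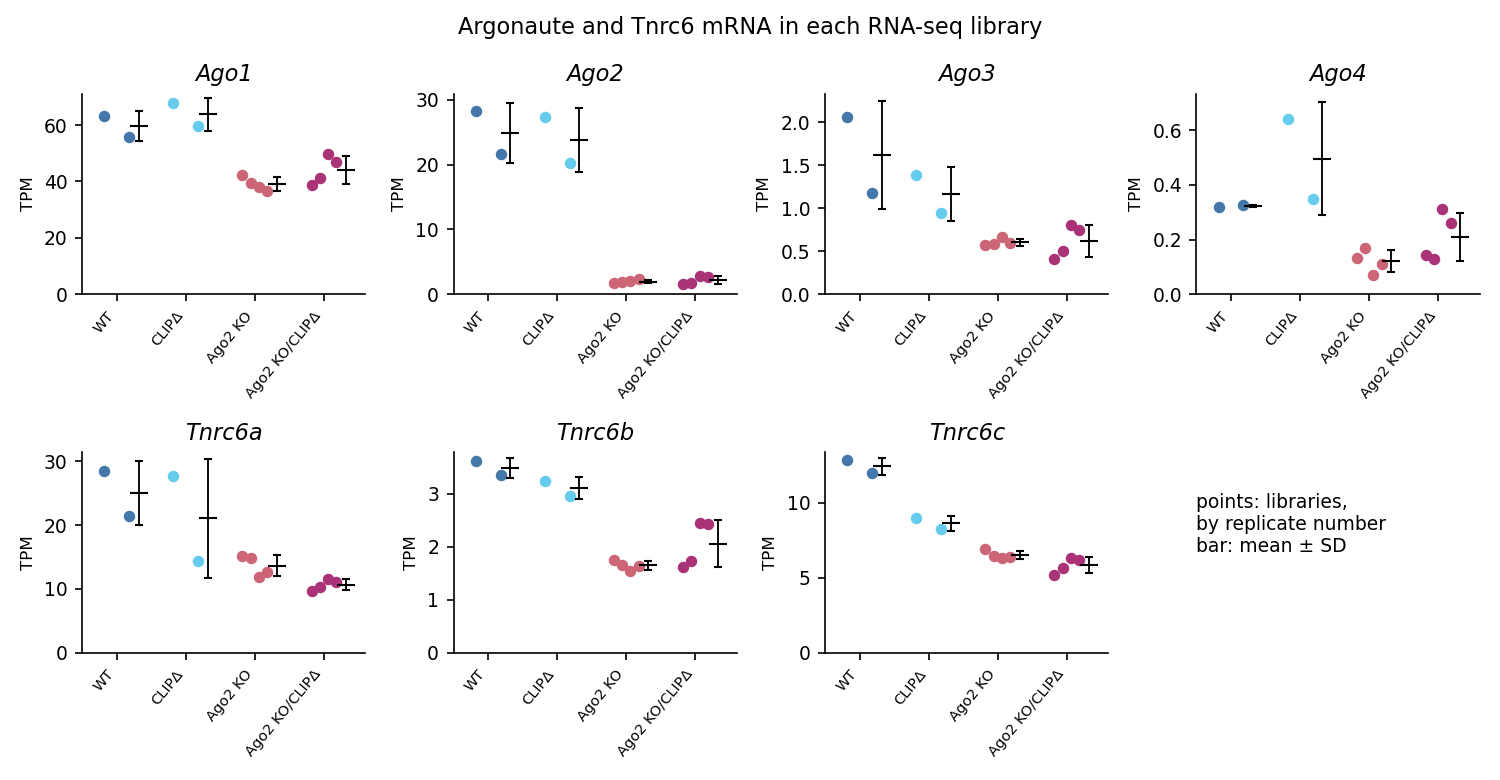
TPM of each member (vertical axis, starting at 0, with its own range for each gene) in every RNA-seq library of the 4 genotypes, with the group mean ± SD beside the points. The knockout points lie below the points of the matching background in all 7 panels, with *Ago2* at 1.51 to 2.87 TPM in the 8 knockout libraries.

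*Ago1* was the most abundant member in all 12 libraries, at 63.3 and 55.9 TPM in WT and 67.9 and 59.7 TPM in CLIPΔ mESCs. It stood at 42.3, 39.5, 37.9, and 36.8 TPM in *Ago2* KO and 38.9, 41.1, 49.6, and 46.9 TPM in *Ago2* KO/CLIPΔ mESCs. The knockout means were 65.7% of WT and 69.2% of CLIPΔ, the highest percentages of the 7 in both backgrounds, and replicates 3 and 4 of *Ago2* KO/CLIPΔ lay above replicates 1 and 2. In limma, *Ago1* fell by 0.59 (SE 0.11, adjusted p = 0.00123) without *Ago2* in the WT background and by 0.53 (adjusted p = 0.00270) in the CLIPΔ background, while the value against genes of like transcript length, given further on, was 0.05 and 0.01.

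*Ago3* and *Ago4* were the lowest members in every library. *Ago3* gave 2.06 and 1.18 TPM in WT, 1.39 and 0.948 TPM in CLIPΔ, 0.575 to 0.663 TPM in *Ago2* KO, and 0.413 to 0.802 TPM in *Ago2* KO/CLIPΔ mESCs. *Ago4* gave 0.319 and 0.325 TPM in WT, 0.642 and 0.350 TPM in CLIPΔ, 0.0711 to 0.170 TPM in *Ago2* KO, and 0.129 to 0.310 TPM in *Ago2* KO/CLIPΔ mESCs. Neither reached the mean of 1 TPM required for testing, so 5 of the 7 members entered the tests. Without that filter, *Ago3* differed by -0.69 (limma adjusted p = 0.00270) and -0.42 (adjusted p = 0.0286), and *Ago4* by -0.24 (adjusted p = 0.0283) and -0.30 (adjusted p = 0.0101), in the WT and CLIPΔ backgrounds. At values under 1 TPM the reads behind a value may be few, and TPM do not keep their number.

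*Tnrc6a* was the most abundant Tnrc6 mRNA, with 28.6 and 21.5 TPM in WT and 27.7 and 14.4 TPM in CLIPΔ mESCs. It gave 15.2, 14.8, 11.9, and 12.7 TPM in *Ago2* KO and 9.64, 10.4, 11.6, and 11.1 TPM in *Ago2* KO/CLIPΔ mESCs. The CLIPΔ libraries lay far apart, and CLIPΔ replicate 2 lay just above the highest knockout library of its background. *Tnrc6a* fell by 0.82 (limma adjusted p = 0.00610) in the WT background and by 0.85 (adjusted p = 0.00526) in the CLIPΔ background. The second value was -0.41 (adjusted p = 0.104) without CLIPΔ replicate 1 and -0.77 (adjusted p = 0.0768) with knockout replicates 3 and 4 alone. The first was -0.62 (adjusted p = 0.0833) without WT replicate 1 and -0.69 (adjusted p = 0.0905) with knockout replicates 1 and 2 alone.

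*Tnrc6b*, at 3.63 and 3.35 TPM in WT and 3.25 and 2.96 TPM in CLIPΔ mESCs, was the scarcest Tnrc6 mRNA. It gave 1.75, 1.66, 1.55, and 1.64 TPM in *Ago2* KO and 1.61, 1.74, 2.45, and 2.43 TPM in *Ago2* KO/CLIPΔ mESCs. Here too, replicates 3 and 4 of *Ago2* KO/CLIPΔ were the higher libraries. *Tnrc6b* fell by 0.76 (limma adjusted p = 0.00063) in the WT background and by 0.44 (adjusted p = 0.0139) in the CLIPΔ background. The call in the CLIPΔ background ended when only those groups were fitted (adjusted p = 0.0580) and with scaling by median ratios (adjusted p = 0.0944). It also ended with knockout replicates 3 and 4 alone (-0.26, adjusted p = 0.0926). Without CLIPΔ replicate 1, which leaves 1 CLIPΔ library, the value was -0.39.

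*Tnrc6c* gave 12.8 and 12.03 TPM in WT and 8.98 and 8.29 TPM in CLIPΔ mESCs. In the knockouts it gave 6.89, 6.44, 6.34, and 6.37 TPM (*Ago2* KO) and 5.22, 5.67, 6.31, and 6.21 TPM (*Ago2* KO/CLIPΔ). It was the member that stood lowest in CLIPΔ relative to WT. *Tnrc6c* fell by 0.84 (limma adjusted p = 9.34e-05) in the WT background and by 0.49 (adjusted p = 0.00197) in the CLIPΔ background. Its longest annotated transcript has 11590 nt, and the one with the longest coding sequence is another, of 8847 nt. Its TPM would be scaled by the length of the former if the authors' annotation gave the same choice.

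All 5 members tested were thus past the threshold as lower in *Ago2* KO mESCs, where 42.4% of the 11287 genes tested were called lower and 14% higher. All 5 were also lower in *Ago2* KO/CLIPΔ against CLIPΔ mESCs, where 42.1% of genes were called lower and 12.8% higher. The median difference over all genes tested was -0.26 and -0.25 in these comparisons, and the members other than *Ago2* ranged from -0.84 to -0.59 and from -0.85 to -0.44. Scaling each library by median ratios removed the shift of the median. It left 3029 genes higher and 2994 lower in *Ago2* KO, against 1579 and 4785 as deposited. In *Ago2* KO/CLIPΔ it left 2947 higher and 2917 lower, against 1446 and 4755. With that scaling, *Ago1* was at -0.31 (limma adjusted p = 0.0146) and -0.24 (adjusted p = 0.0447). *Ago2* was at -2.87 and -2.73, *Tnrc6a* at -0.54 and -0.58, and *Tnrc6c* at -0.57 and -0.24, all called. *Tnrc6b* was called at -0.55 but not at -0.23 (adjusted p = 0.0944). In an exact permutation test over all 12 libraries, two-sided and stratified by background, each of the 7 members gave p = 0.00444, the smallest that the 225 splits allow. Their lack of overlap in both backgrounds makes the observed split the most extreme in its direction. Such a lack of overlap held for 38.9% of all genes as lower and 9.72% as higher, for which no p was computed. The difference of log2 means in that test was -0.56 for *Ago1*, -3.05 for *Ago2*, -0.55 for *Ago3*, -0.27 for *Ago4*, -0.84 for *Tnrc6a*, -0.60 for *Tnrc6b*, and -0.67 for *Tnrc6c*.

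**Figure D2:**
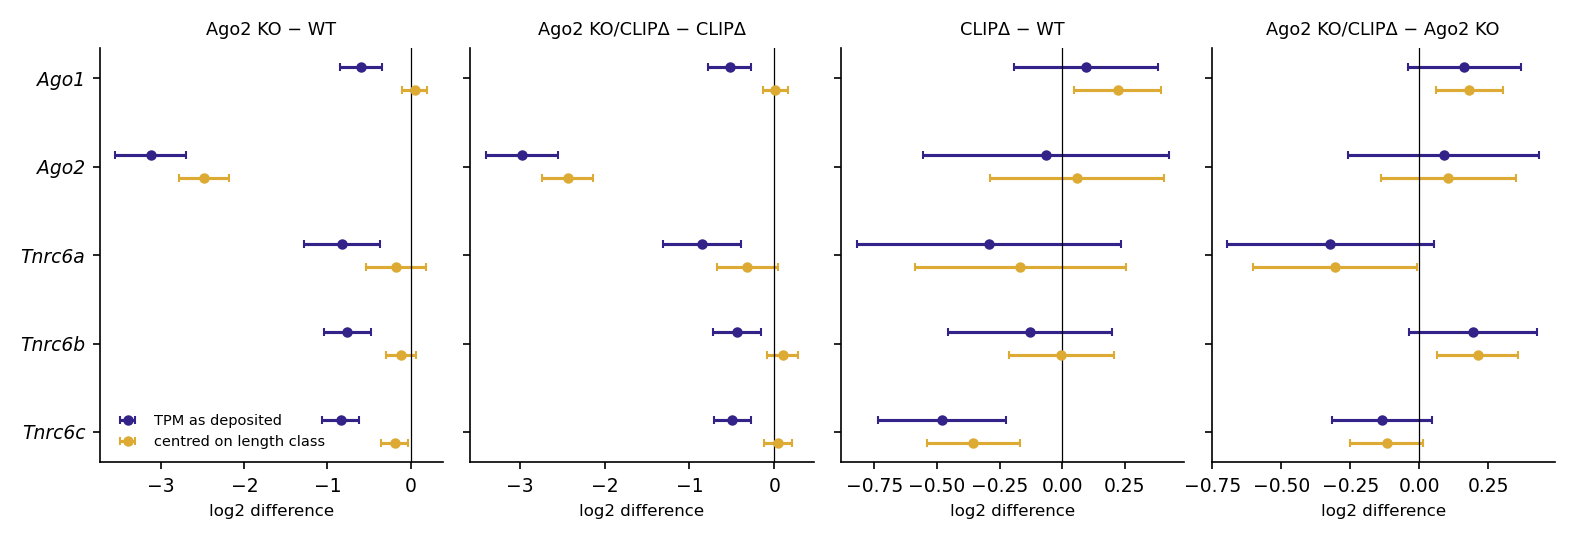
Log2 differences (horizontal axis) with 95% confidence intervals of the 5 tested members in 4 comparisons, from TPM as deposited and after centring on genes of like transcript length. *Ago2* lies below 0 in both knockout comparisons either way, whereas *Ago1* moves from -0.59 and -0.53 to 0.05 and 0.01 with centring.

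The members share a feature, which is length, and differences went with it on *Ago2* loss and, less steeply, in CLIPΔ against WT mESCs. All 7 have a longest transcript of 6448 nt or more, from 6537 nt in *Ago4* to 17332 nt in *Tnrc6b*, which places them in the longest of 10 length classes of tested genes. The 1122 tested genes of that class had a median difference of -0.63 (quartiles -0.94 and -0.35) in *Ago2* KO against WT, while the shortest class had 0.05. In *Ago2* KO/CLIPΔ against CLIPΔ the medians were -0.54 (quartiles -0.81 and -0.25) and -0.02. Spearman’s rho between difference and length across 11212 genes, which are not independent replicates, was -0.353 and -0.290. In CLIPΔ against WT mESCs, which both have *Ago2*, rho was -0.187. The median there was 0.03 in the shortest class and -0.15 in the longest. Between *Ago2* KO/CLIPΔ and *Ago2* KO mESCs rho was -0.0150. The part that length plays in the members' values was not tested.

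**Figure D3:**
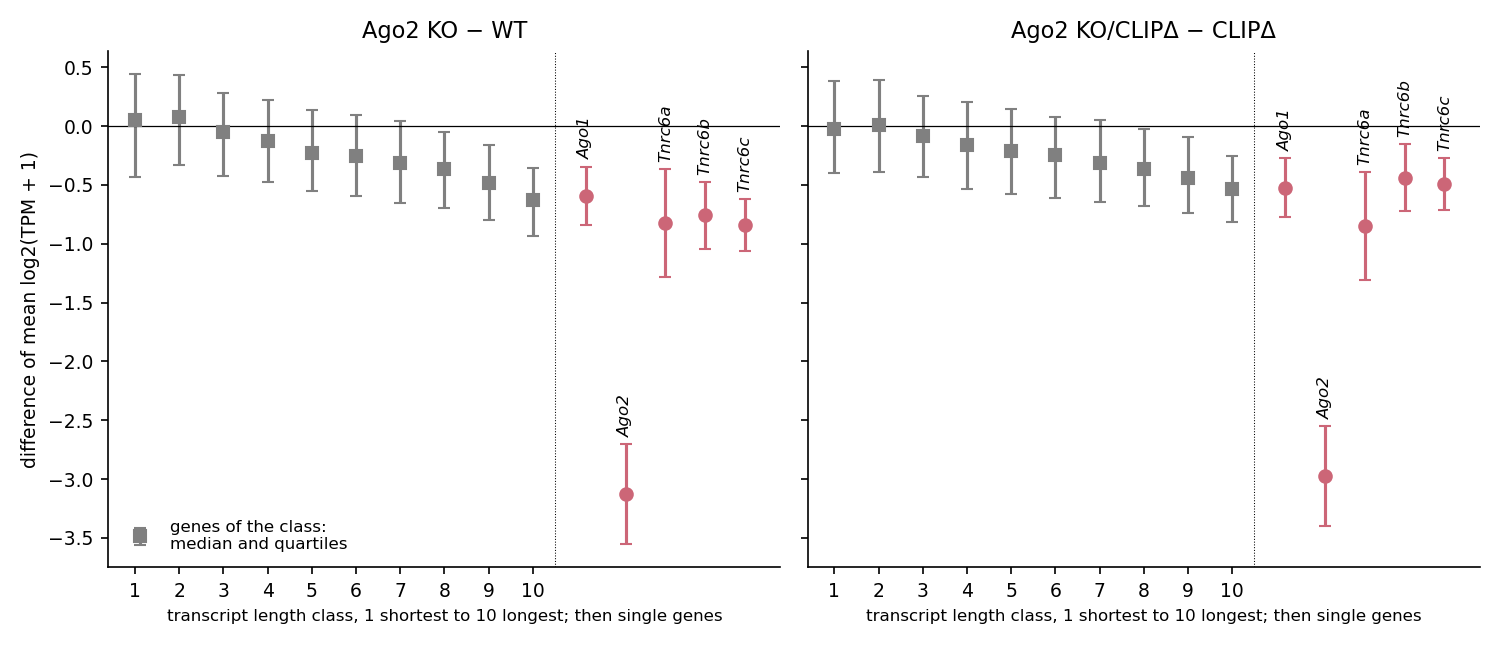
Difference of mean log2(TPM + 1) between knockout and matching background (vertical axis) for genes in 10 classes of transcript length, as median and quartiles, and beside them the 5 tested members with 95% confidence intervals. *Ago1*, at -0.59 and -0.53, lies within the quartiles of the longest class (-0.94 to -0.35 and -0.81 to -0.25), and *Ago2* lies far below them.

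Centring each library on genes of the same length class gave values relative to transcripts of like length. *Ago2* kept its call, at -2.48 and -2.44 in the WT and CLIPΔ backgrounds. *Ago1* was at 0.05 (95% confidence interval -0.10 to 0.20, limma adjusted p = 0.553) and 0.01 (-0.14 to 0.16, adjusted p = 0.901), so a rise of *Ago1* against its class above these upper bounds lay outside the intervals. *Tnrc6a* was at -0.18 (adjusted p = 0.396) and -0.32 (adjusted p = 0.136), and *Tnrc6b* at -0.11 (adjusted p = 0.268) and 0.10 (adjusted p = 0.331). *Tnrc6c* was just past the threshold in the WT background, at -0.19 (adjusted p = 0.0485), and was at 0.04 (adjusted p = 0.642) in the CLIPΔ background. In this form 2 of 5 members were past the threshold in *Ago2* KO, where 47.4% of genes were, and 1 of 5 in *Ago2* KO/CLIPΔ, where 47.8% of genes were. No member was past it as higher in either form.

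The makeup of the Argonaute pool differed between cells with and without *Ago2*. The summed TPM of *Ago1* to *Ago4* was 86.4 ± 10.6 in WT (SD, n = 2), 89.2 ± 11.3 in CLIPΔ (n = 2), 41.8 ± 2.15 in *Ago2* KO (n = 4), and 47.1 ± 5.93 in *Ago2* KO/CLIPΔ mESCs (n = 4). With *Ago2* left out, the sums were 61.5 ± 5.88, 65.4 ± 6.31, 39.9 ± 2.39, and 44.9 ± 5.27 TPM, so the rest of the family also stood lower in the knockouts. *Ago1* made up 69.1% and 71.6% of the pool in WT and CLIPΔ mESCs and 93.6% and 93.7% in the 2 knockouts, and *Ago2* went from 28.7% and 26.5% to 4.69% and 4.54%. *Ago3* made up 1.29% to 1.84% and *Ago4* 0.288% to 0.545% of the pool as group means. *Ago1* mRNA outnumbered *Ago2* mRNA by 2.42 ± 0.244 to 1 in WT and 2.71 ± 0.325 to 1 in CLIPΔ mESCs, and by 20.5 ± 3.87 and 21.2 ± 4.17 to 1 in the knockouts.

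The Tnrc6 pool was smaller in the knockouts, and its 3 members kept their order within it. Its sum was 40.9 ± 5.80 TPM in WT (n = 2), 32.8 ± 10.1 in CLIPΔ (n = 2), 21.8 ± 1.92 in *Ago2* KO (n = 4), and 18.6 ± 1.80 in *Ago2* KO/CLIPΔ mESCs (n = 4). *Tnrc6a* made up 60.8%, 62.8%, 62.4%, and 57.5% of it, *Tnrc6c* 30.6%, 27.4%, 29.98%, and 31.5%, and *Tnrc6b* 8.57%, 9.84%, 7.59%, and 10.97% in the same order. Argonaute mRNA exceeded Tnrc6 mRNA 2.11 ± 0.0411-fold in WT, 2.80 ± 0.514-fold in CLIPΔ, 1.92 ± 0.0971-fold in *Ago2* KO, and 2.53 ± 0.0825-fold in *Ago2* KO/CLIPΔ mESCs.

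**Figure D4:**
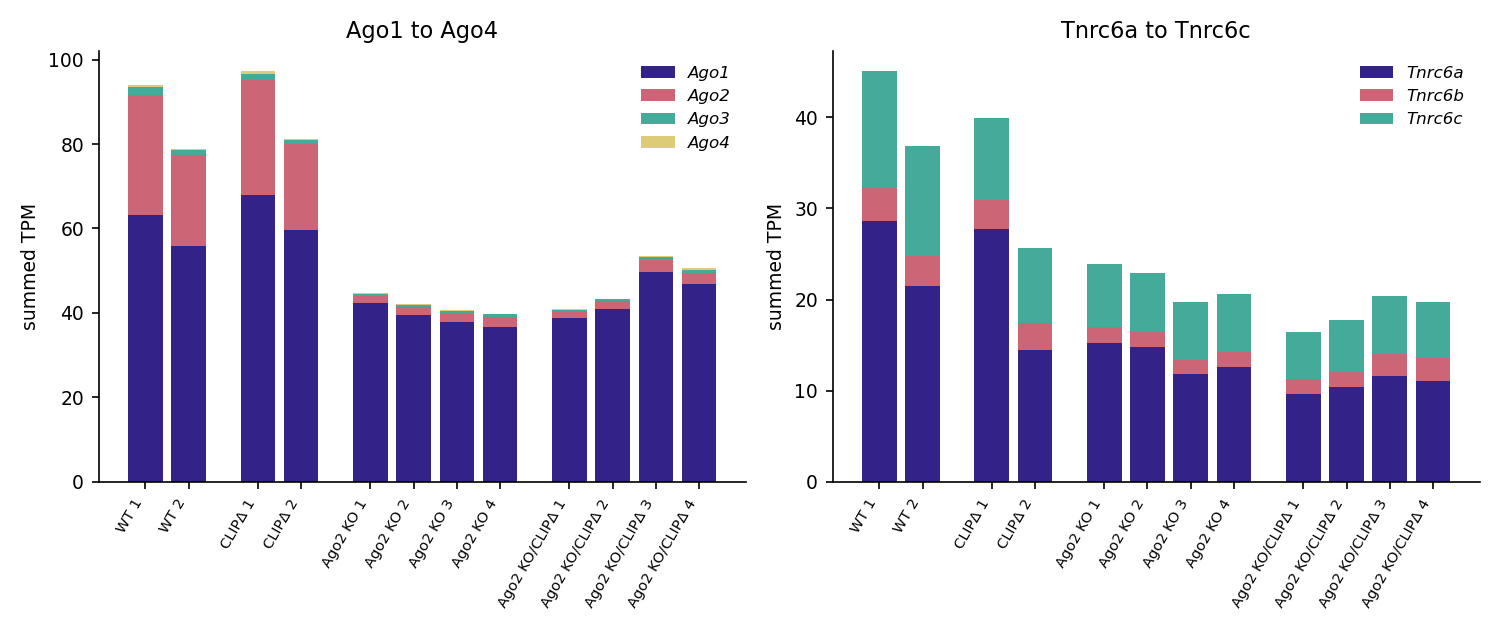
Summed TPM (vertical axis, starting at 0) of the 4 Argonaute mRNAs and of the 3 Tnrc6 mRNAs in each library, stacked by gene. The *Ago2* layer nearly disappears in the 8 knockout libraries, whose Argonaute sums lie between 39.8 and 53.6 TPM, below the 78.9 to 97.2 TPM of the 4 libraries with *Ago2*.

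In order of level, *Ago1* came first and *Ago3* and then *Ago4* last in every library. In WT and CLIPΔ mESCs, *Ago2* and *Tnrc6a* followed *Ago1* with overlapping ranges, ahead of *Tnrc6c* and *Tnrc6b*. In both knockouts, *Tnrc6a* and then *Tnrc6c* followed *Ago1*, and *Ago2* and *Tnrc6b* overlapped below them. No other neighbours in the order had overlapping ranges within a group.

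CLIPΔ and WT mESCs, which differ by the Trim71-binding region in the *Ago2* 3’UTR, were compared next. None of the 5 members was past the threshold in limma, where 2.27% of genes were. At an unadjusted limma p under 0.05 there was 1 member, against 1459 of the 11287 genes tested. *Ago2* itself differed by -0.06 (95% confidence interval -0.55 to 0.43, adjusted p = 0.949), so a change of *Ago2* mRNA of up to about these bounds was not detectable with 2 libraries a group. *Tnrc6c* was that 1 member, at -0.48 (confidence interval -0.74 to -0.23, adjusted p = 0.0587). It was past the threshold with median-ratio scaling (adjusted p = 0.0334) and without the mean-variance trend (adjusted p = 0.0434). *Ago1* differed by 0.10 (-0.19 to 0.38), *Tnrc6a* by -0.29 (-0.82 to 0.24), and *Tnrc6b* by -0.13 (-0.46 to 0.20). Relative to genes of like length, *Ago1* was at 0.22 (0.05 to 0.39, limma adjusted p = 0.209).

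In the absence of *Ago2*, the same deletion was compared between *Ago2* KO/CLIPΔ and *Ago2* KO mESCs. None of the 5 members was past the threshold in limma, where 0.877% of genes were. From TPM as deposited, no member had an unadjusted limma p under 0.05, against 1243 of the 11287 genes tested. The differences ran from -0.32 (95% confidence interval -0.70 to 0.05) for *Tnrc6a* to 0.19 (-0.04 to 0.43) for *Tnrc6b*, with *Ago1* at 0.16, *Ago2* at 0.09, and *Tnrc6c* at -0.13. With the replicate number as a block, 180 genes were called in place of 99, and still none of the members. Replicates 3 and 4 of *Ago2* KO/CLIPΔ were higher than replicates 1 and 2 in all 7 members and in 54.1% of all genes, and their median over the table was 5.96 and 5.98 TPM against 4.95 and 5.06 TPM. With replicates 1 and 2 of both knockouts alone *Ago1*, *Ago2*, and *Tnrc6b* were at -0.03, -0.08, and -0.02.

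The difference between the effects of *Ago2* loss in the 2 backgrounds was tested as an interaction. None of the 5 members was past the threshold in limma, where 0.647% of genes were. Of the 11287 genes tested, 904 had an unadjusted limma p under 0.05, as had 1 member. That was *Tnrc6c*, whose difference was smaller in the CLIPΔ background by 0.35 (95% confidence interval 0.03 to 0.66, adjusted p = 0.547). The values of the others were 0.32 for *Tnrc6b*, 0.15 for *Ago2*, 0.07 for *Ago1*, and -0.03 for *Tnrc6a*. A different response of these members to *Ago2* loss in CLIPΔ mESCs was therefore not detected at these intervals, which reach 0.75 for *Ago2*.

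The partners of the complex were counted over a list of 44 genes, of which 43 were in the table and 42 were tested. In *Ago2* KO against WT, 2 rose, 25 fell, and 15 did not pass the test, with a median difference of -0.46. Of all genes tested, 14% were called higher and 42.4% lower there. In *Ago2* KO/CLIPΔ against CLIPΔ, 2 rose, 24 fell, and 16 did not pass, with a median of -0.56, where 12.8% of all genes were called higher and 42.1% lower. Relative to genes of like length the counts were 6 higher and 17 lower in the WT background, where 23.4% of genes were called higher and 24% lower, and 7 higher and 16 lower in the CLIPΔ background, where 23.8% were called higher and 24% lower. None was called in the other 3 comparisons. Of all genes, 2.27% were called in CLIPΔ against WT, 0.877% between the knockouts, and 0.647% in the interaction.

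**Figure D5:**
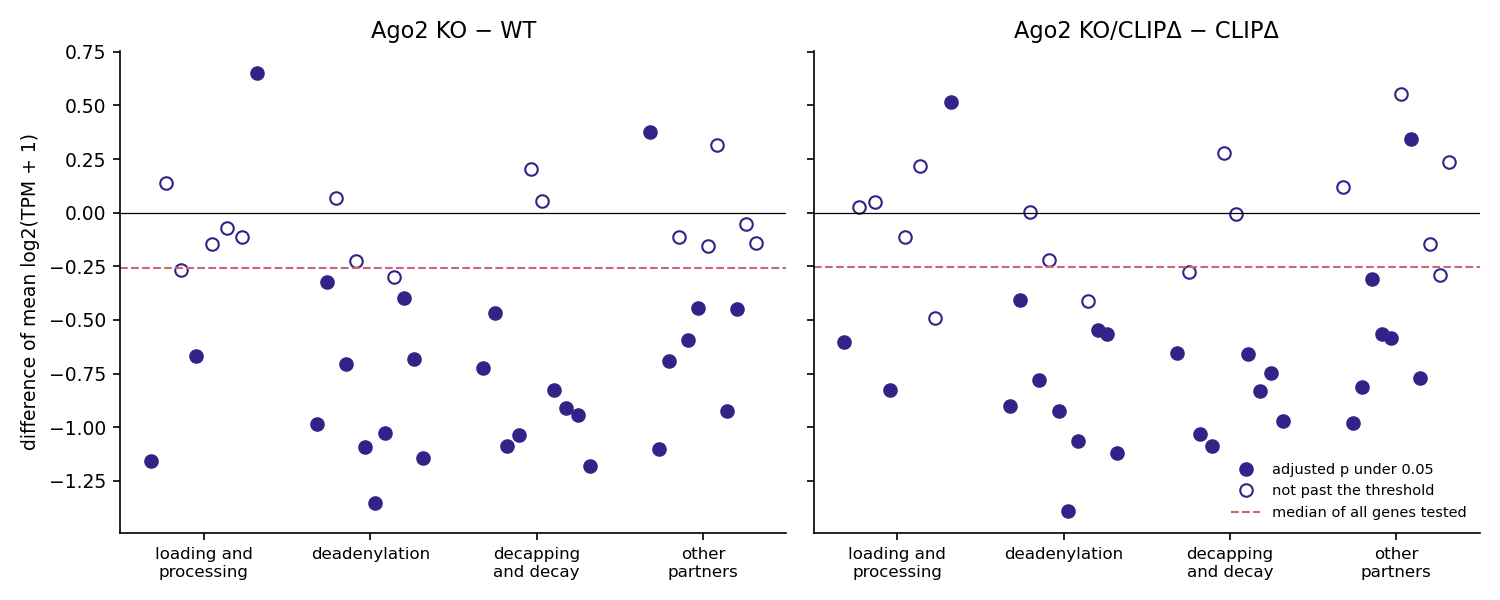
Difference of mean log2(TPM + 1) between knockout and matching background (vertical axis) for the 42 tested partner genes, grouped by role, with filled points for those past the threshold and a dashed line at the median of all genes tested (-0.26 and -0.25). Most deadenylation and decay genes lie below that line, and *Tarbp2* is the filled point at 0.65 and 0.52.

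Of 12 tested deadenylation genes, 9 fell and none rose in each comparison of TPM as deposited, where 42.4% and 42.1% of all genes were called lower. Relative to genes of like length, 6 were lower and 1 higher in the WT background, and 7 were lower and 0 higher in the CLIPΔ background, where 24% of all genes were called lower in either. The deepest were *Cnot6*, a catalytic subunit of the CCR4-NOT deadenylase, at -1.35 (limma adjusted p = 0.000305) and -1.39 (adjusted p = 0.000322), and *Pan3*, a subunit of the PAN2-PAN3 deadenylase, at -1.15 (adjusted p = 0.000342) and -1.12 (adjusted p = 0.000463). With length-centring, *Cnot6* was at -0.86 and -0.95 and *Pan3* at -0.66 and -0.68, all called. Of 10 tested decapping and decay genes, 8 and 7 fell and none rose as deposited, against 7 lower and 2 higher, and 6 lower and 1 higher, relative to genes of like length. *Xrn1*, the 5’ to 3’ exonuclease that degrades decapped mRNA, was at -1.18 (adjusted p = 0.000193) and -0.97 (adjusted p = 0.000668) in limma, and at -0.53 and -0.43, still called, relative to genes of like length.

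Among the 8 genes of miRNA processing and loading, 1 rose and 2 fell in each comparison, where 14% and 12.8% of all genes were called higher and 42.4% and 42.1% lower. After length-centring, 1 was higher and 2 lower in the WT background, and 2 higher and 1 lower in the CLIPΔ background. Of all genes, 23.4% and 23.8% were then called higher and 24% lower in either. *Tarbp2*, which encodes a double-stranded RNA-binding partner of Dicer, rose from a mean of 74.0 TPM in WT to 116 TPM in *Ago2* KO, a difference of 0.65 (limma adjusted p = 0.00162). It rose from 77.4 TPM in CLIPΔ to 111 TPM in *Ago2* KO/CLIPΔ, a difference of 0.52 (adjusted p = 0.00656). The second call ended with knockout replicates 3 and 4 alone (0.36, adjusted p = 0.0889), and the value was 0.38 without CLIPΔ replicate 1. *Dicer1*, which encodes the RNase that cuts pre-miRNAs, had means of 29.2 TPM in WT, 21.3 TPM in CLIPΔ, 12.5 TPM in *Ago2* KO, and 13.8 TPM in *Ago2* KO/CLIPΔ mESCs. It fell by 1.16 (adjusted p = 5.13e-05) and by 0.60 (adjusted p = 0.00175), and the interaction of 0.56 did not pass (adjusted p = 0.302). Relative to genes of like length, *Dicer1* was at -0.51, still called, and -0.06 (adjusted p = 0.585).

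Of the 12 other partners, 1 rose and 6 fell in each comparison, which is near the share of all genes (42.4% and 42.1% called lower). With length-centring, 2 were higher and 2 lower in the WT background, and 4 were higher and 2 lower in the CLIPΔ background. The shares of all genes were then 23.4% and 23.8% higher and 24% lower in either. The gene that rose was *Ajuba*, which encodes a LIM protein that binds the silencing complex, in *Ago2* KO (0.38, limma adjusted p = 0.0306), and *Mov10*, which encodes an RNA helicase, in *Ago2* KO/CLIPΔ (0.34, adjusted p = 0.0420). *Ajuba* in the CLIPΔ background (0.12, adjusted p = 0.457) and *Mov10* in the WT background (0.31, adjusted p = 0.0571) did not pass. *Trim71*, with means of 34.9 TPM in WT, 27.4 TPM in CLIPΔ, 25.4 TPM in *Ago2* KO, and 24.7 TPM in *Ago2* KO/CLIPΔ mESCs, was at -0.45 (adjusted p = 0.00336) and -0.14 (adjusted p = 0.253). Relative to genes of like length its sign was the opposite, at 0.20 (adjusted p = 0.123) and 0.39 (adjusted p = 0.00832), and with median-ratio scaling it was at -0.17 (adjusted p = 0.134) and 0.14 (adjusted p = 0.208).

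The genes next to the Argonaute loci were examined for changes shared with them. Near *Ago2*, 5 genes were tested, of which 1 fell in *Ago2* KO and 2 fell in *Ago2* KO/CLIPΔ, and none rose as deposited, where 42.4% and 42.1% of all genes fell. After length-centring, 3 and 2 of them were called higher and none lower, where 23.4% and 23.8% of all genes were called higher and 24% lower in either. *Ptk2*, which encodes focal adhesion kinase, fell in both, by 0.37 and 0.38 in limma, and was at 7.57e-05 and -0.0090 relative to genes of like length. Its call also ended in both comparisons with median-ratio scaling, in *Ago2* KO without WT replicate 1 (adjusted p = 0.0663), and in *Ago2* KO/CLIPΔ without CLIPΔ replicate 1 (0.0536) or 2 (0.0527), with only those groups fitted (0.0559), and with knockout replicates 3 and 4 alone (0.0837). Near the chromosome 4 cluster, 5 genes were tested, of which 1 rose and 1 fell in each comparison, in both forms. *Clspn*, which encodes the replication checkpoint protein claspin, fell by 0.86 and 0.73, and *Psmb2*, a proteasome subunit gene, rose by 0.30 and 0.26. The second call of *Psmb2* ended with only those groups fitted (limma adjusted p = 0.0542), with knockout replicates 1 and 2 alone (0.0700), and without CLIPΔ replicate 1 (0.0692). No neighbour approached the drop of *Ago2* itself, the lowest being -0.86.

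The gene whose log2(TPM + 1) followed a member most closely over the 12 libraries was named for each. For *Ago2* the first 5 of 8137 genes by Pearson’s r were *Tex15* (0.994), *Rnf216* (0.994), *Mknk1* (0.992), *Gigyf2* (0.992), and *Ccdc59* (0.991). For the others they were *Tacc1* for *Ago1* (0.990), *Ahnak* for *Ago3* (0.990), *Pqlc3* for *Ago4* (0.956), *Bicral* for *Tnrc6a* (0.984), *Mrps9* for *Tnrc6b* (0.988), and *Dlc1* for *Tnrc6c* (0.990). Between members, r ran from 0.590 for *Ago4* with *Tnrc6c* to 0.965 for *Ago1* with *Tnrc6b*. These are descriptions over libraries that fall into 2 clusters, with and without *Ago2*, so any gene that differs between them correlates.

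Markers of the labelled cell type were detected in every library. Of 9 mESC markers 8 were in the table (not *Sox2*), with a sum of 9971 to 13253 TPM per library, most of it *Dppa5a* and *Pou5f1*. Against the WT and CLIPΔ means, *Nanog* stood at 71.9% and 66.5% in the knockouts, *Tfcp2l1* at 69.5% and 67.3%, and *Klf4* at 68.6% and 86.9%. *Tdgf1* was at 74.4% and 97.6%, *Zfp42* at 87.9% and 92.3%, *Esrrb* at 94.2% and 104%, and *Dppa5a* at 89.4% and 120%. *Pou5f1* was higher in both, at 116% and 123%. The part of these markers in the members' values was not tested. The sum of the 8 of 10 lineage and primed-state markers in the table was 45.9 to 48.3 TPM in WT, 38.4 to 38.5 TPM in CLIPΔ, 21.6 to 32.5 TPM in *Ago2* KO, and 28.6 to 30.6 TPM in *Ago2* KO/CLIPΔ mESCs, so it moved with the knockouts in the direction of the members, and its part in their values was not tested. Singly, *T* stood at 38.5% and 78.9% of the WT and CLIPΔ means, *Otx2* at 58.1% and 99.2%, and *Cdx2* at 76.3% and 59.3%. *Sox17* was at 104% and 79.8%, while *Gata4*, *Gata6*, *Foxa2*, and *Pax6* were lower in both. *Fgf5* and *Sox1* were not in the table and *Pax6* was near 0. The 3 of 4 fibroblast markers in the table summed to 1.32 to 3.73 TPM with no separation of the groups by the sum. Singly they went opposite ways, with *Col1a2* at 15.4% and 13.7% of the WT and CLIPΔ means. *Col1a1* was at 202% and 137% and *Thy1* at 126% and 128%, all with group means of at most 1.36 TPM.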

How the data were processed

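RNA-seq values were deposited as TPM. Per the paper’s methods, the authors aligned reads to mm10 by HISAT2 (2.1.0 in the submitters’ processing notes), made HTSeq counts on 1 transcript per gene, the longest, and converted these to TPM for each library. The libraries were directional, and the strand setting of the counting is not given in the sources used here. TPM keep no depth, so the depth of the 12 libraries is unknown (sums of 998656 to 999501 TPM), and no counting interval is given. The CLIP-seq peak list, deposited with read counts per peak common to both replicates, was used only to find peaks in the members. The CLIPΔ columns carry a code and were read as CLIPΔ by elimination.

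Tests used limma 3.58.1 (lmFit, eBayes with trend) in R 4.3.3 on log2(TPM + 1) for the 11287 of 15034 genes that averaged 1 TPM or more, with the 4 genotypes in 1 fit, Benjamini–Hochberg adjustment over all genes tested, and a threshold of 0.05. The authors’ count test could not be applied to TPM. For length-centring, chosen after the values were seen, the median deviation from the gene means within each of 10 classes of longest transcript (GENCODE vM21) was subtracted per library, for the 11212 tested genes with a length. The members, the lists, and the tests were chosen with earlier results of these data known. Partners named were those called with the same sign in both knockout comparisons with the largest changes, and *Dicer1* and *Trim71*. Neighbours named were those called in both. *Ajuba* and *Mov10* were named after their values were seen. Alternatives were another pseudocount, other filters, median-ratio scaling, fits of only the groups compared, no trend, a replicate block, subsets of the knockout replicates, and leaving out each library.

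The labels number the replicates. Between *Ago2* KO and *Ago2* KO/CLIPΔ, libraries with the same number deviated together from their group means (r = 0.433, 0.320, 0.420, and 0.360), as did different numbers within 1 and 2 or within 3 and 4 (0.335 to 0.467). Between WT and CLIPΔ, r was 0.715 in both pairs, which with 2 libraries a group are a single comparison. No label names a batch. Python 3.11.15 with pandas 2.3.3, scipy 1.17.1, and pysam 0.24.0 was used for the other steps.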

Additional observations from a re-analysis of the deposited data

Results flagged for a closer look

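*Tnrc6c* in *Ago2* KO replicate 1, at 6.895 TPM, lay apart from the other 3 libraries of its genotype, which gave 6.34 to 6.44 TPM. The gap made up 0.832 of the range of the group, just over the limit of Dixon’s test at 4 samples, which chance passes in about 1 of 20 groups. It lay nearest to the WT values, and without it *Tnrc6c* was still called lower in *Ago2* KO than in WT by limma.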

How the results depend on the processing

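TPM hold no depth and WT and CLIPΔ have 2 libraries each, which limits the precision of their means. Of the results that answer a comparison, 327 values under alternatives kept their direction, call, or size, and 44 did not. The first count includes the permutation test of each of the 7 members without each of the 12 libraries. Leaving out a library cannot create overlap between groups, so those values had little room to change.

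Leaving out 1 library gave 4150 to 6631 called genes in *Ago2* KO against WT (lowest without WT replicate 1) and 4 to 5 members, 3648 to 6609 in *Ago2* KO/CLIPΔ against CLIPΔ (lowest without CLIPΔ replicate 1) and 3 to 5 members, 101 to 390 in CLIPΔ against WT, 21 to 161 in *Ago2* KO/CLIPΔ against *Ago2* KO, and 48 to 137 in the interaction. Knockout replicates 3 and 4 alone gave 4065 genes and 3 members in *Ago2* KO/CLIPΔ against CLIPΔ, 120 genes in CLIPΔ against WT, 12 in the interaction, and 0 in *Ago2* KO/CLIPΔ against *Ago2* KO (1368 at an unadjusted limma p under 0.05). Replicates 1 and 2 alone gave 101 genes in CLIPΔ against WT, 0 in *Ago2* KO/CLIPΔ against *Ago2* KO (1441 unadjusted), and 0 in the interaction (812 unadjusted). With no filter the count was 510 in CLIPΔ against WT and 168 in the interaction, and with a mean of at least 5 TPM it was 145 and 39. Fits of only the groups compared gave 0 genes in CLIPΔ against WT (604 unadjusted) and 353 in *Ago2* KO/CLIPΔ against *Ago2* KO. The replicate block gave 180 there, and 804 with only those groups (chosen after the values were seen), and 352 and 333 in CLIPΔ against WT, against 256 without it in the full fit. Under the block, *Ago2* differed by -3.30 and -3.15 on its loss, and no call of a member changed in any of the 5 comparisons. Median-ratio scaling and the fit without a trend each called 1 member, *Tnrc6c*, in CLIPΔ against WT, and that scaling put the WT sums at 74.0 TPM (Argonaute) and 35.1 TPM (Tnrc6).

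Length-centring left 2 and 1 members called on *Ago2* loss. In the exact permutation test it gave 0.0316 for *Ago1* (p = 0.24), -0.246 for *Tnrc6a* (p = 0.0622), -0.00725 for *Tnrc6b* (p = 0.827), and -0.0750 for *Tnrc6c* (p = 0.111). It turned the sign of *Ago1* (0.0515 and 0.0117), *Trim71* (0.20 and 0.39, and 0.14 with median-ratio scaling), *Ptk2* in *Ago2* KO (7.57e-05), *Tnrc6b* (0.0998) and *Tnrc6c* (0.0438) in *Ago2* KO/CLIPΔ, *Ago2* in CLIPΔ against WT (0.0610), and *Ago1* in the interaction (-0.0398).

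Signs of values not past the threshold turned with knockout replicates 1 and 2 alone for *Ago1* (-0.0324), *Ago2* (-0.0778), and *Tnrc6b* (-0.0171) between knockouts and for *Ago1* (-0.13) and *Ago2* (-0.0132) in the interaction, and with replicates 3 and 4 alone for *Tnrc6a* in the interaction (0.19). Leaving out 1 library gave ranges across 0 in CLIPΔ against WT for *Ago2* (-0.27 to 0.14) and *Tnrc6a* (-0.74 to 0.16), between knockouts for *Ago2* (-0.0148 to 0.19), and in the interaction for *Ago1* (-0.0232 to 0.16), *Ago2* (-0.0533 to 0.36), and *Tnrc6a* (-0.48 to 0.42). The causes were not tested.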
